A study of Saccharomyces cerevisiae with 8 samples.

Results

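The phosphate starvation genes of budding yeast were followed on arrays of cells given carnitine, hydrogen peroxide or both. They are 10 genes that take up, release, store or sense phosphate, chosen by symbol in the platform annotation: PHO84, PHO89, SPL2, PHM8, PHO5, PHO81, PHO86, VTC1, VTC3 and VTC4. Each had 1 probe set, none of them marked as matching several genes, so the 10 probe sets stand for 10 of the 5449 genes on the array. All 10 lay above the floor for low signals, as did 5324 of the 5449 genes.

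In budding yeast, the transcription factor Pho4, with its partner Pho2, switches on these genes when phosphate runs short. When phosphate is plentiful, the cyclin-dependent kinase Pho85 with its cyclin Pho80 phosphorylates Pho4 and keeps it out of the nucleus, and Pho81 inhibits that kinase on starvation. Among the target genes are those for high-affinity transporters, secreted and intracellular phosphatases, and the complex that stores phosphate in the vacuole as polyphosphate chains.

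Total RNA came from cultures of the haploid Saccharomyces cerevisiae laboratory strain BY4742 and was read on 8 Affymetrix arrays, 2 biological replicates in each of 4 groups. The groups were carnitine with peroxide, peroxide alone, carnitine alone and an untreated control, and peroxide was 0.4 mM hydrogen peroxide for 30 min before harvest. Carnitine, a quaternary amine that ferries acyl groups between cell compartments, was at 100 mg/L by the design text and at 1000 mg/L by the treatment protocol; which applied was not settled here. All groups carried the same his3, leu2, lys2 and ura3 markers and were harvested in mid-log growth in synthetic complete dextrose medium; the labels name no phosphate limitation. The genotype field reads MATa, whereas MF(ALPHA)1 and STE3, markers of alpha cells, had signals of 46478 to 51980 and 16046 to 27503, and MFA1 and STE2, markers of a cells, 82.0 to 166 and 84.3 to 241. LEU2, LYS2 and URA3 read 3.87 to 4.09, at the floor of 4.14, while HIS3 read 10505 to 17056.

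Signals are linear array units, and group values are means ± SD of 2 arrays. Changes are log2 differences ± SE from 1 limma fit over all 8 arrays and 5324 genes, with a gene said to rise or fall at a Benjamini-Hochberg adjusted p below 0.05. Median signals of the tested genes ranged from 3044 to 3198 across arrays. The median absolute log2 gap between replicates was 0.086 to 0.098 for all tested genes and 0.074 to 0.14 for the 10 phosphate genes. The 2 arrays a group limit the precision of each estimate. For each gene the fit pooled the spread between replicate cultures over the 4 groups and moderated it by the trend over all genes. An SE or p-value therefore does not measure the spread of the compared groups alone. Each array averages a whole culture, so fewer cells with a transcript and less of it per cell cannot be told apart. All changes are relative to the overall signal of the arrays. Scaling to bacterial poly-A spikes moved the median of all genes by -0.50 (log2) for peroxide against control and by 0.62 for carnitine with peroxide against peroxide; scaling to hybridisation spikes moved it by 0.48 and 0.059. Values under these scalings are given beside many of the results below, and small changes under peroxide depend on the scaling throughout.

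The response was split among the 10 genes. PHO84 and SPL2 fell with carnitine whether or not peroxide was present, and PHM8 rose with peroxide. PHO89 fell with carnitine in unstressed cells, a call that several alternatives ended. PHO81, PHO86 and the VTC genes moved by less than 0.50 (log2) in each comparison of the signals as deposited. Poly-A spike scaling put the last 5 past the threshold for peroxide alone, at -0.61 for PHO81, -0.69 for PHO86, -0.67 for VTC1, -0.997 for VTC3 and -0.75 for VTC4. With carnitine alone against control, 0 of the 10 rose and 3 fell, where 0.470% of all tested genes rose, 1.03% fell and 1.50% passed in either direction. With carnitine and peroxide against peroxide alone, 0 rose and 4 fell, where 18.8% of all genes rose, 16.7% fell and 35.5% passed. Peroxide alone against control gave 1 that rose and 5 that fell, where 35.3% of all genes rose, 39.5% fell and 74.8% passed. Carnitine with peroxide against carnitine alone gave 1 that rose and 2 that fell, where 35.8% of all genes rose, 39.1% fell and 74.9% passed. Both treatments against control gave 1 that rose and 5 that fell, where 35.1% of all genes rose, 38.9% fell and 74.1% passed. The median change of the 10 was -0.16 for carnitine alone and -0.094 for carnitine under peroxide, against -0.0011 and 0.0078 over all genes. The members were listed with earlier results of these data known. Many of the comparisons share arrays. The carnitine effects with and without peroxide share none, nor do the peroxide effects with and without carnitine.

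PHO84 (YML123C) encodes the high-affinity transporter that brings phosphate in together with protons, and its transcript was low in every carnitine-fed culture. Its signal was 1102 and 979 with carnitine and peroxide, 3674 and 3080.0 with peroxide alone, 1081 and 1492 with carnitine alone and 4171 and 4905 in control cultures. The 4 carnitine-fed arrays lay below the 4 unfed ones with no overlap, and the highest carnitine-fed value, 1492, was under the lowest unfed value, 3080.0. PHO84 fell by 1.83 ± 0.17 with carnitine alone (3.56-fold, adjusted p = 0.00688) and fell by 1.70 ± 0.17 with carnitine under peroxide (3.24-fold, adjusted p = 0.00204). The carnitine effect with peroxide minus that without was 0.14 ± 0.24 (adjusted p = 0.730), with a 95% interval of -0.43 to 0.70, so a difference of this range was not resolved by 2 arrays a group. Under poly-A spike scaling that difference was 0.68 (adjusted p = 0.0174).

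For PHO84 the peroxide change was -0.43 ± 0.17 without carnitine (adjusted p = 0.0523) and -0.29 ± 0.17 with it (adjusted p = 0.159), neither past the threshold. Without either array of carnitine alone the first passed (adjusted p = 0.0227 and 0.0231), and without carnitine replicate 1 so did the second, at -0.52 (adjusted p = 0.0248). The peroxide change without carnitine also passed under quantile normalization (adjusted p = 0.0322) and median centring (adjusted p = 0.0275). It passed too with only genes above the highest fission yeast signal (adjusted p = 0.0327) and with only the arrays of the comparison (adjusted p = 0.0290). Poly-A spike scaling put this change at -0.93 (adjusted p = 3.48e-07) and hybridisation spike scaling at 0.056 (adjusted p = 0.799), on the other side of 0. In order of signal the groups ran control, peroxide alone, carnitine alone, carnitine with peroxide; of these neighbours, peroxide alone and carnitine alone differed, by 1.41 ± 0.17 (adjusted p = 1.54e-04), a pair of groups in which 75.5% of all genes passed.

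SPL2 (YHR136C), for a small protein that restrains low-affinity phosphate uptake in phosphate-starved cells, was lowered by carnitine and by peroxide, and was lowest where both were given. Its signal was 19.4 and 16.3 with carnitine and peroxide, 116 and 79.9 with peroxide alone, 74.1 and 78.6 with carnitine alone and 349 and 503 in control cultures. The arrays with both treatments lay below all others and the control arrays above all others, while peroxide alone and carnitine alone lay in between and did not pass against each other (0.33 ± 0.23, adjusted p = 0.219). Group means were 17.9 ± 2.25 with carnitine and peroxide, 97.8 ± 25.4 with peroxide alone, 76.4 ± 3.18 with carnitine alone and 426 ± 109 in control cultures (SD, n = 2 each). SPL2 fell by 2.46 ± 0.23 with carnitine alone (adjusted p = 0.00688) and fell by 2.43 ± 0.23 with carnitine under peroxide (adjusted p = 0.00204). Counted from the most negative change of the 5324 genes, it had rank 2 in the first comparison and rank 6 in the second. The difference between these effects was 0.022 ± 0.33 (adjusted p = 0.977; 95% interval -0.74 to 0.78). With peroxide SPL2 fell by 2.12 ± 0.23 without carnitine (adjusted p = 8.83e-05) and fell by 2.10 ± 0.23 with carnitine (adjusted p = 8.40e-05). Both treatments against control gave -4.56 ± 0.23, a 23.5-fold fall (adjusted p = 2.51e-06). With 50 added to each signal, which damps low values, the change under both treatments was -2.79, that with carnitine -1.11 under peroxide and -1.89 without it, and that with peroxide -0.90 in carnitine-fed cells and -1.68 without carnitine. The difference of the carnitine effects was then 0.78 (adjusted p = 0.0825), so the likeness of these effects depends on how low signals are treated.

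PHO89 (YBR296C) encodes a second high-affinity transporter, which couples phosphate to sodium, and it was below control with either treatment and with both. Its signal was 61.1 and 42.0 with carnitine and peroxide, 53.2 and 56.3 with peroxide alone, 50.3 and 29.0 with carnitine alone and 144 and 297 in control cultures. Control was the one group above 100, with its 2 arrays well apart, while the 6 treated arrays overlapped between 29.0 and 61.1. PHO89 fell by 2.44 ± 0.38 with carnitine alone (adjusted p = 0.0301) and fell by 1.92 ± 0.38 with peroxide alone (adjusted p = 0.00232). Under peroxide the carnitine change was -0.11 ± 0.38 (adjusted p = 0.843), and poly-A spike scaling turned it to 0.51. The carnitine effects with and without peroxide differed, by 2.33 ± 0.54 (adjusted p = 0.0365). Both this difference and the carnitine call ended with no filter, with 50 added to each signal and with no trend in the variance. For carnitine alone the adjusted p was then 0.0696, 0.0617 and 0.0520. It was 0.119 in a fit of only the arrays of the comparison. The carnitine call ended when any one array other than control replicate 1 was left out (adjusted p up to 0.160), and the difference lost its call without any one of the 8 arrays (adjusted p 0.0564 to 0.121).

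**Figure D1:**
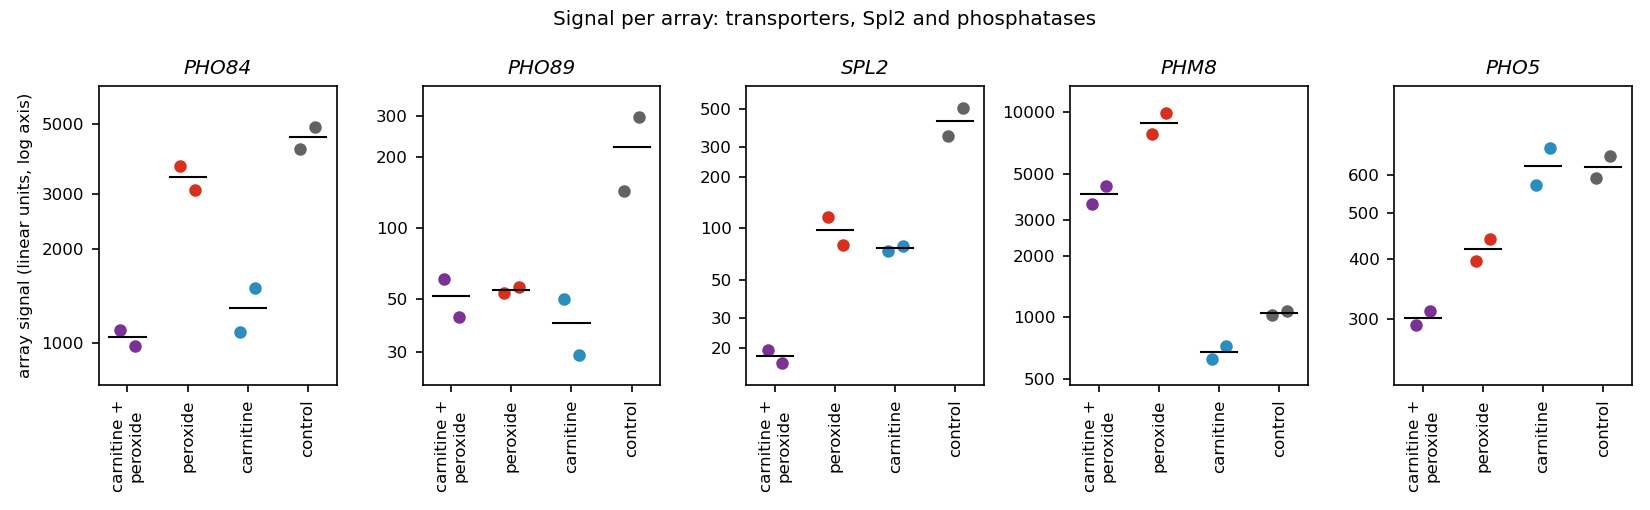
Signal of PHO84, PHO89, SPL2, PHM8 and PHO5 on each of the 8 arrays (linear array units on a log axis; points are arrays, bars are means of 2). The carnitine-fed arrays are the 4 lowest for PHO84, the arrays with both treatments are lowest for SPL2 at 19.4 and 16.3, and PHM8 is highest with peroxide alone at 7868 and 9962.

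PHM8 (YER037W), for an intracellular phosphatase that acts on lysophosphatidic acid and nucleotides, rose with peroxide in both settings. Its signal was 3562 and 4394 with carnitine and peroxide, 7868 and 9962 with peroxide alone, 628 and 727 with carnitine alone and 1028 and 1075 in control cultures. The 4 groups did not overlap: peroxide alone was highest, carnitine with peroxide next, then control, with carnitine alone lowest. PHM8 rose by 3.07 ± 0.15 with peroxide alone (8.42-fold, adjusted p = 1.83e-06) and rose by 2.55 ± 0.15 with peroxide in carnitine-fed cells (5.86-fold, adjusted p = 3.51e-06). Carnitine under peroxide lowered it: PHM8 fell by 1.16 ± 0.15 (2.24-fold, adjusted p = 0.00292), and it remained below under both spike scalings, at -0.54 and -1.10. Without peroxide the carnitine change was -0.64 ± 0.15 (adjusted p = 0.0999), with no overlap of arrays but not past the threshold. The difference between the carnitine effects was -0.52 ± 0.21 (adjusted p = 0.133), which did not pass, and poly-A spike scaling put it at 0.016 (adjusted p = 0.957).

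PHO5 (YBR093C), the gene of the main secreted acid phosphatase, did not pass for carnitine in unstressed cells and was lowest with both treatments. Its signal was 291 and 311 with carnitine and peroxide, 397 and 441 with peroxide alone, 573 and 682 with carnitine alone and 590.3 and 659 in control cultures. Carnitine alone and control overlapped, with a change of 0.0036 ± 0.13 (adjusted p = 0.999; 95% interval -0.30 to 0.31). PHO5 fell by 0.58 ± 0.13 with peroxide alone (adjusted p = 0.00475), a call that hybridisation spike scaling ended, at -0.092 (adjusted p = 0.720). In carnitine-fed cells it fell by 1.06 ± 0.13 with peroxide (adjusted p = 1.75e-04). With carnitine under peroxide it fell by 0.48 ± 0.13 (adjusted p = 0.0284). That last call ended without peroxide replicate 2 or either array with both treatments (adjusted p up to 0.149) and under hybridisation spike scaling (-0.42, adjusted p = 0.192), and the direction turned under poly-A spike scaling (0.15). The acid phosphatase genes PHO3, PHO11 and PHO12 are close relatives of PHO5, and whether their transcripts reach its probe set was not tested.

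PHO81 (YGR233C), the inhibitor of the Pho80-Pho85 kinase, passed in no comparison of the signals as deposited. Its signal was 1265 and 1329 with carnitine and peroxide, 1376 and 1354 with peroxide alone, 1399 and 1338 with carnitine alone and 1375 and 1579.8 in control cultures. Its 4 groups lay within 0.18 of each other on the log2 scale, and 0 of the 6 pairs of groups passed. The widest of these, both treatments against control, was -0.18 ± 0.10 (adjusted p = 0.124; 95% interval -0.41 to 0.044). Under poly-A spike scaling PHO81 passed for peroxide alone, at -0.61 (adjusted p = 0.00176), and for carnitine under peroxide, at 0.55 (adjusted p = 0.00511) against -0.074 without the scaling. Hybridisation spike scaling put peroxide alone at 0.37 (adjusted p = 0.0794).

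PHO86 (YJL117W), for an endoplasmic reticulum protein needed to send Pho84 to the cell surface, did not pass in any comparison of the main fit. Its signal was 14248 and 13899 with carnitine and peroxide, 13064 and 10614 with peroxide alone, 12765 and 12837 with carnitine alone and 13261 and 13455 in control cultures. The carnitine change was -0.061 ± 0.088 without peroxide (adjusted p = 0.826) and 0.26 ± 0.088 with it (adjusted p = 0.0564). Peroxide replicate 2 read lowest of the 8 arrays. The carnitine change under peroxide was 0.11 without it (adjusted p = 0.202) and 0.41 without peroxide replicate 1 (adjusted p = 0.00365), past the threshold. Poly-A spike scaling put it at 0.88, past the threshold, and peroxide alone at -0.69, also past it, where hybridisation spike scaling gave 0.30 (adjusted p = 0.0871). Both treatments against control passed under hybridisation spike scaling, at 0.62 (adjusted p = 2.98e-04), and carnitine under peroxide also with the replicate number as a block (adjusted p = 0.0496). Peroxide alone passed with median centring (adjusted p = 0.0342). With only genes above the highest fission yeast signal kept, carnitine under peroxide passed (adjusted p = 0.0413).

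In the main fit the genes of the vacuolar polyphosphate polymerase had changes under 0.50, and none passed for carnitine with or without peroxide. With no filter VTC3 passed for carnitine under peroxide, at 0.20 (adjusted p = 0.0468). Under poly-A spike scaling all 3 passed for carnitine under peroxide, at 0.66 for VTC1, 0.82 for VTC3 and 0.81 for VTC4. VTC4 (YJL012C) encodes the catalytic subunit, VTC3 (YPL019C) an accessory subunit and VTC1 (YER072W) the small membrane subunit. VTC3 read 4469.8 and 4273 with carnitine and peroxide, 3942 and 3668 with peroxide alone, 4602 and 4600.1 with carnitine alone and 5183 and 5527 in control cultures. Peroxide alone was lowest and control highest, with no overlap between any 2 groups. VTC3 fell by 0.49 ± 0.067 with peroxide alone (adjusted p = 3.09e-04), against -0.074 ± 0.067 with peroxide in carnitine-fed cells (adjusted p = 0.345). Hybridisation spike scaling brought the first to -0.010 (adjusted p = 0.961). With both treatments against control VTC3 fell by 0.29 ± 0.067 (adjusted p = 0.00490), a call lost under poly-A scaling, at -0.17 (adjusted p = 0.344), and turned under hybridisation scaling, at 0.25 (adjusted p = 0.173).

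The group means of VTC4 ran in the same order as those of VTC3, with smaller steps. For neither gene did neighbouring groups in that order pass against each other in the main fit, so the order was not resolved. VTC4 read 5645 and 5422 with carnitine and peroxide, 5054 and 4678 with peroxide alone, 5466 and 5706 with carnitine alone and 5523 and 6012 in control cultures, and peroxide alone lay below the other 3 groups. VTC4 fell by 0.24 ± 0.070 with peroxide alone (adjusted p = 0.0137). The call ended without control replicate 2 or peroxide replicate 2, and hybridisation spike scaling turned the direction (0.24, adjusted p = 0.189). VTC1 read 12276 and 14285 with carnitine and peroxide, 12966 and 12927 with peroxide alone, 14269.7 and 14409.9 with carnitine alone and 14245 and 14825 in control cultures. Its lowest array, at 12276, and one of the higher ones, at 14285, were the replicates with both treatments, and 0 of the 6 pairs of groups passed. Without replicate 2 of that group VTC1 passed for peroxide alone (adjusted p = 0.0165), for peroxide in carnitine-fed cells at -0.22 (adjusted p = 0.0124) and for both treatments at -0.24 (adjusted p = 0.00910). The peroxide change of VTC1, -0.17 ± 0.071 (adjusted p = 0.0650), also passed under quantile normalization and median centring. It passed too with only the arrays of the comparison (adjusted p = 0.0308) and with the replicate number as a block (adjusted p = 0.0479). Under hybridisation spike scaling it was 0.32 (adjusted p = 0.0719). The carnitine changes under peroxide were 0.033 ± 0.071 for VTC1, 0.20 ± 0.067 for VTC3 and 0.19 ± 0.070 for VTC4 (adjusted p = 0.750, 0.0517 and 0.0745).

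**Figure D2:**
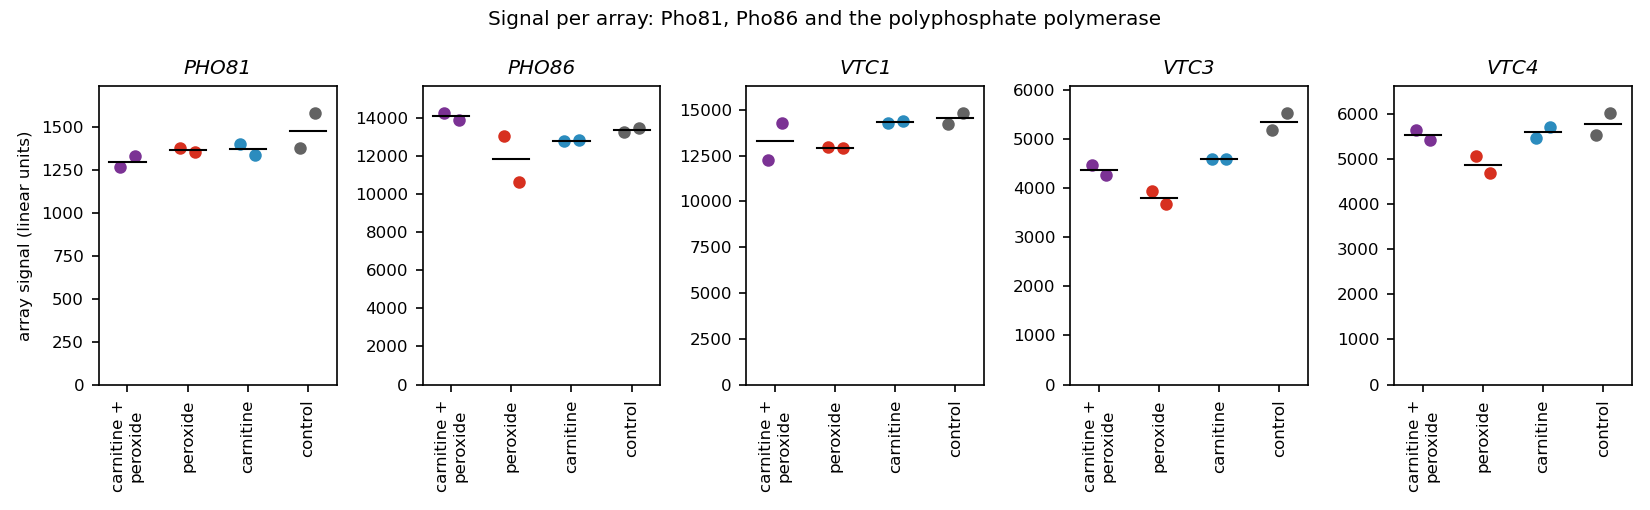
Signal of PHO81, PHO86, VTC1, VTC3 and VTC4 on each of the 8 arrays (linear array units from 0; points are arrays, bars are means of 2). Peroxide replicate 2 is the lowest array for PHO86, and VTC3 is lowest with peroxide alone at 3942 and 3668.

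The carnitine effect was compared between stressed and unstressed cells over separate arrays. Of the 3 phosphate genes that fell with carnitine alone and the 4 that fell with carnitine under peroxide, 2 were shared, PHO84 and SPL2. Over all tested genes, 20 were lower in both, which is 36.4% of the 55 that fell without peroxide and 2.25% of the 890 that fell with it. The test of the difference called 2 of the 10, both higher under peroxide than without, where 7.72% of all genes were higher, 5.11% lower and 12.8% passed: PHO89 (above) and VTC3, at 0.42 ± 0.095 (adjusted p = 0.0345). For VTC3 the carnitine change was 0.20 ± 0.067 with peroxide and -0.22 ± 0.067 without, neither past the threshold alone in the main fit. The VTC3 call ended without any one array other than peroxide replicate 1 and under hybridisation spike scaling (0.29, adjusted p = 0.614). At an unadjusted p below 0.05 the difference passed for 5 of the 10, namely those 2 with PHM8, PHO5 and PHO86, where 32.1% of all genes did.

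**Figure D3:**
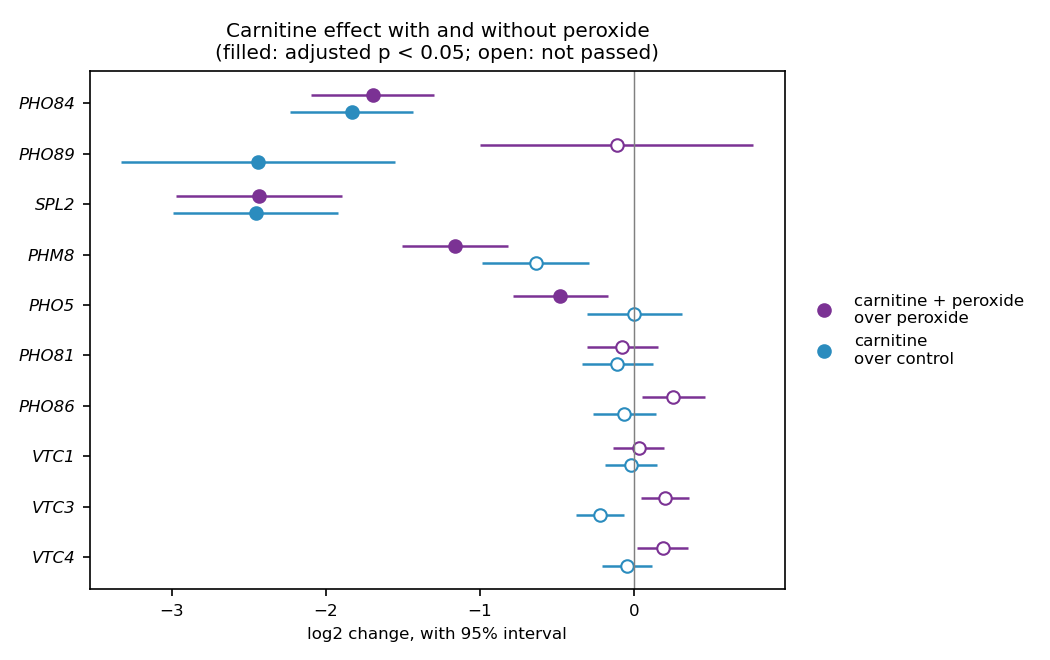
Carnitine effect on the 10 genes with peroxide (carnitine with peroxide over peroxide) and without it (carnitine over control), as log2 changes with 95% intervals; filled points passed at an adjusted p below 0.05. PHO84 and SPL2 sit at similar values in both, -1.70 and -1.83 for PHO84, while PHO89 sits at -0.11 with peroxide and -2.44 without.

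Peroxide against its own unstressed group gave a fall for SPL2 and PHO5 and a rise for PHM8 both with and without carnitine. PHO89, VTC3 and VTC4 fell without carnitine and had 0.41 ± 0.38, -0.074 ± 0.067 and -0.014 ± 0.070 in carnitine-fed cells, none past the threshold. The difference between the peroxide effects with and without carnitine is the same quantity as that between the carnitine effects, so it passed for PHO89 and VTC3 and not for VTC4 (0.23 ± 0.10, adjusted p = 0.157). The median change over the 10 genes was -0.076 with carnitine and -0.34 without, against -0.023 and -0.025 over all genes.

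**Figure D4:**
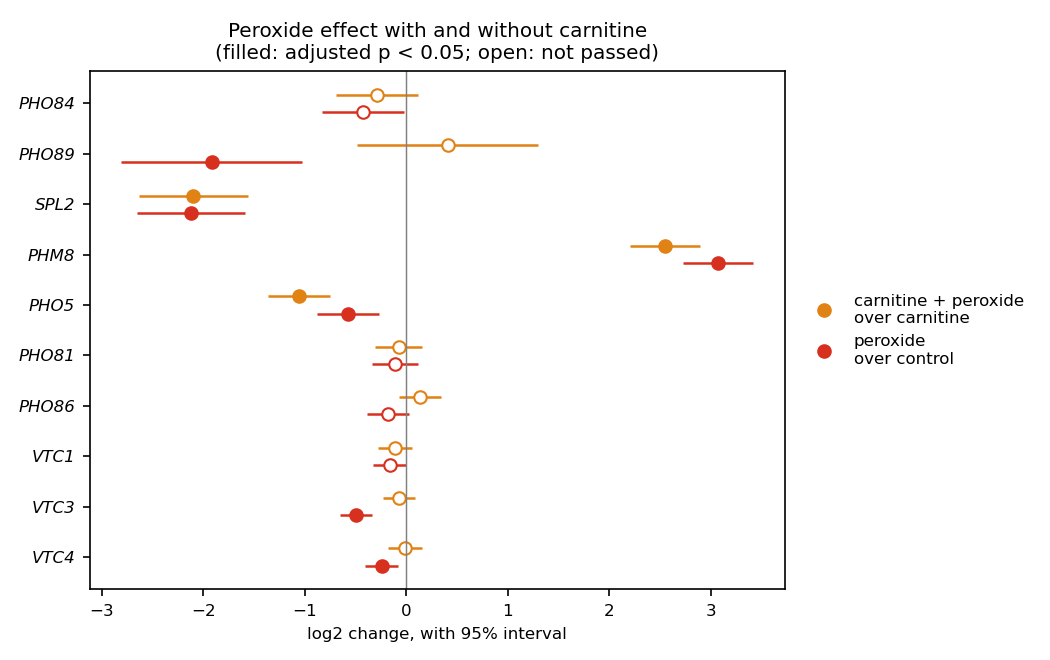
Peroxide effect on the 10 genes in carnitine-fed cells (carnitine with peroxide over carnitine) and without carnitine (peroxide over control), as log2 changes with 95% intervals; filled points passed at an adjusted p below 0.05. PHM8 rose in both, by 2.55 and 3.07, and SPL2 fell in both, with -2.10 and -2.12.

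Another 36 genes of the pathway were listed, of which 33 were on the array and tested: other transporters, the kinase and transcription factors, inositol pyrophosphate enzymes, phosphatases, polyphosphate enzymes and further phosphate-responsive genes. With carnitine alone, limma called 0 of the 33, where 1.50% of all genes passed, with 5 at an unadjusted p below 0.05, a share of 15.2% against 14.5% of all genes, and a median of -0.018. The widest of these was PHO11 (YAR071W), a second secreted acid phosphatase, at -0.79 ± 0.15 (adjusted p = 0.0524). It read 784 and 893 with carnitine and 1298 and 1619.8 in control cultures, with no overlap, on a probe set marked as matching several genes. Under poly-A spike scaling PHO11 passed, at -0.71 (adjusted p = 0.0227). Under hybridisation spike scaling it did not, at -0.60 (adjusted p = 0.115). GPP2, a glycerol phosphatase gene, went the other way with carnitine alone, at 0.34 ± 0.064 (adjusted p = 0.0545).

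Carnitine under peroxide raised 6 of the 33 and lowered 5, a share of 33.3% against 35.5% of all genes, with a median of -0.012. PHM7, which encodes a membrane protein, rose by 1.37 ± 0.17 (adjusted p = 0.00291), with 95.4 and 132 under both treatments and 39.6 and 47.7 with peroxide alone. PHM6, of unknown role, fell by 1.12 ± 0.18 (adjusted p = 0.00474), with 41.6 and 31.1 under both treatments and 75.9 and 80.7 with peroxide alone. PHM6 and PHM7 are both phosphate-responsive genes, so this group did not move one way. PHO3, the acid phosphatase gene next to PHO5, fell by 0.85 ± 0.19 (adjusted p = 0.0125), and poly-A spike scaling ended this call (-0.22, adjusted p = 0.216). HIS1, for the first enzyme of histidine synthesis, fell by 0.68 ± 0.068 (adjusted p = 0.00204), which poly-A spike scaling also ended (-0.059). SND3, formerly PHO88 and used in sending proteins to the endoplasmic reticulum, rose by 0.47 ± 0.058 (adjusted p = 0.00289), and GDE1, which releases glycerophosphate from glycerophosphocholine, rose by 0.36 ± 0.091 (adjusted p = 0.0208).

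Among the genes that pass the phosphate signal on, PHO85 rose by 0.26 ± 0.074 (adjusted p = 0.0332) with carnitine under peroxide, and PCL6, a cyclin gene of the same kinase, fell by 0.43 ± 0.082 (adjusted p = 0.00821). PHO4, for the transcription factor itself, had -0.35 ± 0.13 (adjusted p = 0.0766) under peroxide and 0.28 (adjusted p = 0.127) there under poly-A spike scaling. Without peroxide its carnitine change was 0.32 ± 0.13 (adjusted p = 0.336). Peroxide in carnitine-fed cells lowered PHO4, at -0.52 ± 0.13 (adjusted p = 0.00752). Poly-A spike scaling kept that call (-0.49, adjusted p = 0.00945), and hybridisation spike scaling ended it (-0.17, adjusted p = 0.417). Inositol pyrophosphates are the small molecules by which yeast reports its phosphate supply. With carnitine under peroxide KCS1, for a kinase that makes them, rose by 0.46 ± 0.072 (adjusted p = 0.00432). DDP1, for a phosphatase that removes them, rose by 0.32 ± 0.057 (adjusted p = 0.00648), while SIW14, for another such phosphatase, fell by 0.33 ± 0.067 (adjusted p = 0.00910). Hybridisation spike scaling ended the calls of PHO85, PCL6, DDP1, SIW14 and GDE1, and poly-A spike scaling turned those of PCL6 and SIW14 to 0.20 and 0.29.

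Peroxide in carnitine-fed cells raised 15 of the 33 and lowered 11, and peroxide alone raised 11 and lowered 14, shares near the 74.9% and 74.8% of all genes that passed. The low-affinity transporter gene PHO90 fell by 1.72 ± 0.11 in carnitine-fed cells (adjusted p = 5.25e-06) and fell by 1.76 ± 0.11 without carnitine (adjusted p = 5.53e-06). The related PHO87 fell by 0.48 ± 0.089 and fell by 0.65 ± 0.089, but hybridisation spike scaling ended both calls. PHO3 fell by 2.96 ± 0.19 in carnitine-fed cells and fell by 2.35 ± 0.19 without carnitine (adjusted p = 5.13e-06 and 1.76e-05). KCS1 fell by 0.82 ± 0.072 with carnitine and fell by 1.18 ± 0.072 without it, and GPP2, a glycerol phosphatase gene once named HOR2, rose by 1.23 ± 0.064 and 1.52 ± 0.064. In carnitine-fed cells peroxide also raised GIT1, for a glycerophosphoinositol transporter, by 0.56 ± 0.16, PHO2 by 0.51 ± 0.10, and the inositol phosphate kinase genes ARG82, IPK1 and VIP1 by 0.65 ± 0.13, 0.32 ± 0.12 and 0.24 ± 0.075, and PLC1, for phospholipase C, fell by 0.61 ± 0.085. Poly-A spike scaling ended the calls of IPK1 and VIP1 there, hybridisation spike scaling that of PLC1, and quantile normalization turned GIT1. For peroxide alone, 16 of the 25 calls held in direction and threshold under each spike scaling, and 5 (poly-A) and 6 (hybridisation) turned direction. The turned genes were DDP1, GDE1, PHO13, PHO8 and PPX1 under poly-A, and HIS1, PCL7, PHO80, PPN1, SYG1 and VTC2 under hybridisation scaling.

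**Figure D5:**
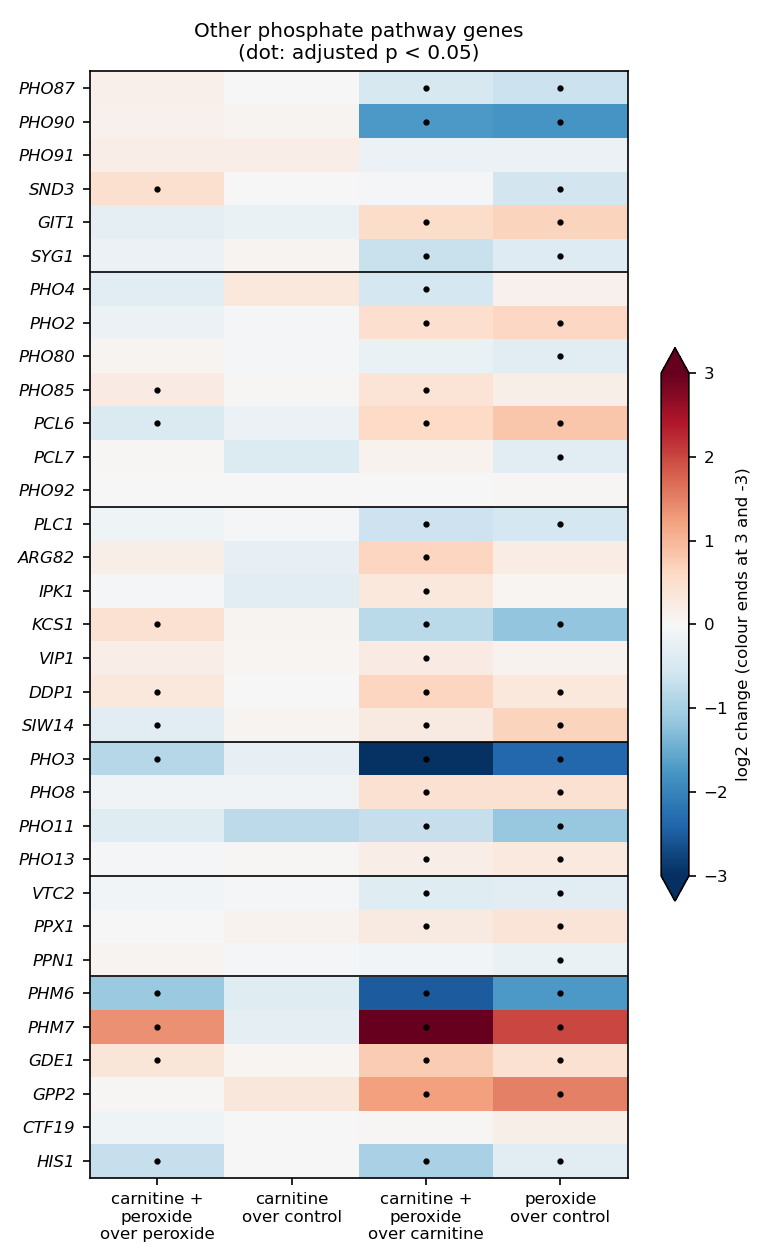
Log2 changes of the 33 other phosphate pathway genes in 4 comparisons (columns; red higher, blue lower, colour ending at 3 and -3; dots mark an adjusted p below 0.05; lines part transporters, signalling, inositol enzymes, phosphatases, polyphosphate enzymes and others). The carnitine over control column holds 0 dots, and the 2 peroxide columns hold 26 and 25.

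The genes closest in pattern were found by the root mean square difference of log2 signals over the 8 arrays after centring each gene on its mean, with the 10 genes left out. For PHO84 the nearest were FET4, a low-affinity iron transporter gene, at 0.47, YDL241W at 0.48 and ARG3, for an arginine synthesis enzyme, at 0.51. Their carnitine changes without peroxide were -0.96, -0.80 and -0.71, none past the threshold. With carnitine under peroxide they were -2.12, -1.58 and -1.13, all past it (adjusted p = 0.00356, 0.00204 and 0.00391). These genes were chosen for their likeness to PHO84 over the same arrays, so the values are descriptions. The nearest to SPL2 were FIG1 at 0.75, YBR184W at 0.76 and YBL029W at 0.84. For PHO89 they were YOL155W-A at 0.48, IRC10 at 0.63 and WHI5 at 0.66. Group means of the genes nearest to PHO89 ran from 2.52 to 4.92 (log2), low signals against the floor of 2.05. Of those nearest to SPL2, YBR184W ran from 2.30 to 4.91, YBL029W from 3.39 to 7.17 and FIG1 from 4.17 to 7.31.

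For PHM8 the nearest were UBX6 at 0.18, OPI10 at 0.24 and CIS1 at 0.24, with changes under peroxide alone of 2.99, 2.73 and 3.24. Their changes with carnitine under peroxide were -1.01, -1.03 and -1.69, and since these genes were chosen for their likeness to PHM8 over the same arrays, both values are descriptions. For the other 6 genes the first of the 3 nearest lay at 0.037 to 0.069, the least for VTC4 with SEC21 and the most for PHO5 with VID22. The sets of 3 were VID22, DSF2 and SCS7 for PHO5, VBA3, AMF1 and SKG1 for PHO81, and ADH7, TAT1 and MRPL50 for PHO86. The measure takes no account of level. Group means (log2) of VBA3 were 2.04 to 2.17 and of AMF1 2.19 to 2.37, at or near the floor of 2.05. Those of ADH7 were 3.50 to 3.75. For the VTC genes they were EMC3, URA6 and ARF1 for VTC1, SUC2, SGE1 and PMT7 for VTC3, and SEC21, PRP9 and TRX1 for VTC4.

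The protein-coding genes on either side of each phosphate gene were taken from the order of the RefSeq R64 annotation. Of the 20 neighbours 18 were tested, and with carnitine alone 0 fell and 1 rose, where 1.50% of all genes passed: NCA3 beside PHO86, by 1.06 ± 0.15 (adjusted p = 0.0216). TUB3 beside PHO84 had -0.051 ± 0.082, PCA1 beside PHO89 had 0.12 ± 0.10, and YCK1 and ARO9 on the 2 sides of SPL2 had 0.20 ± 0.11 and -0.026 ± 0.20. With carnitine under peroxide 2 of the 18 fell and 5 rose, near the 35.5% of all genes that passed, the 2 being PHO3 beside PHO5 and ALD5 beside VTC1.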

How the data were processed

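Total RNA from 8 yeast cultures, 2 in each of 4 groups, was read on Affymetrix arrays that also carry fission yeast probe sets. The values are array signal intensity on a linear scale, 1 value per probe set and array, as deposited by the authors; GCOS was used, per the submitters' processing notes, and no source used here gives the summary or scaling settings. No read depth applies, and the number of arrays limits precision. Groups came from the sample labels, and 0 columns of per-sample values were left out as unmapped.

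The log2 of each signal was taken without further normalization. Of 10928 probe sets, 5498 named 1 S. cerevisiae gene, and the brightest probe set of a gene was kept, which left 5449 genes. A gene was tested where its mean signal reached the floor of 4.14, the 95th percentile of mean signals over 1746 fission yeast probe sets, and 5324 passed. R 4.3.3 with limma 3.58.1 (lmFit, eBayes with trend) fitted 4 group means to all 8 arrays, and p-values were adjusted by Benjamini-Hochberg over the tested genes, with a threshold of 0.05. Figures were drawn with Python 3.11.15 and matplotlib 3.10.9. On simulated data for carnitine against control over 5324 genes, 100 genes were changed at each of 2 sizes. The fit recovered 81% of 1.5-fold and 95% of 2-fold changes, with 9 false calls among 185 calls. In the real comparison 80 genes passed, so these rates need not carry over to it.

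The genes named were all 10 members, pathway genes that passed in any comparison and the 3 genes nearest to each member in pattern. The members and lists were chosen with earlier results of these data known. The neighbours along the chromosome fall outside this rule and were named after their values were seen. Symbols of 12 genes were updated through RefSeq. Alternatives covered normalization, spike scaling, the filter, 50 added to each signal, the variance trend, the arrays fitted, the replicate block, the probe sets of a gene and each array left out in turn. Promoter motifs were not analysed here.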

Additional observations from a re-analysis of the deposited data

Results flagged for a closer look

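The carnitine effect with peroxide minus that without passed for 7 phosphate genes in limma's test of the difference, with Benjamini-Hochberg adjusted p over all tested genes. They are 2 of the 10 members and 5 of the 33 other pathway genes, where 12.8% of all genes passed. Among the 10 members, PHO89 had 2.33 (adjusted p = 0.0365) and VTC3 had 0.42 (adjusted p = 0.0345). Among the other pathway genes, PHM7 had 1.65 (adjusted p = 0.0191), SND3 had 0.49 (adjusted p = 0.0210), DDP1 had 0.33 (adjusted p = 0.0410), SIW14 had -0.41 (adjusted p = 0.0365) and HIS1 had -0.67 (adjusted p = 0.0191). Hybridisation spike scaling ended the calls of VTC3 (0.29, adjusted p = 0.614), SND3 (0.36, adjusted p = 0.509), DDP1 (0.20, adjusted p = 0.757) and SIW14 (-0.54, adjusted p = 0.181). Poly-A spike scaling ended that of HIS1 (-0.13, adjusted p = 0.592) and turned SIW14 to 0.13 (adjusted p = 0.589). PHM7 passed under both scalings. Its unstressed arrays read low, at 9.18 and 8.69 with carnitine and 11.2 and 10.5 in control cultures, against a floor of 4.14.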

How the results depend on the processing

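Members that passed were 6 for peroxide, against 10 under poly-A and 3 under hybridisation spike scaling. For carnitine under peroxide they were 4, against 9 under poly-A scaling, and for peroxide in carnitine-fed cells 3, against 5 under hybridisation scaling. For the difference of effects they were 2, against 6 under poly-A scaling and 1 each under hybridisation scaling, no filter, 50 added and no variance trend. With 1 array left out they ranged from 2 to 3 for carnitine, 5 to 7 for peroxide, 3 to 4 for peroxide in carnitine-fed cells, 3 to 6 for carnitine under peroxide, 0 to 2 for the difference and 6 to 7 for both treatments against control. Among values that passed before or after scaling, directions turned under poly-A scaling for carnitine under peroxide in PHO89 (0.51), PHO5 (0.15) and PHO81 (0.55). Under hybridisation scaling they turned for peroxide in VTC4 (0.24) and for both treatments against control in VTC1 (0.41), VTC3 (0.25) and VTC4 (0.48). Counting values that passed on neither side too, 10 of 60 signs turned under poly-A and 21 of 60 under hybridisation scaling. The cause was not tested. PHO84 and SPL2 kept their carnitine calls in all 19 alternatives, and PHM8 its peroxide call. PHO89 lost its carnitine call with no filter, 50 added, no variance trend and only the arrays of the comparison, besides the arrays left out. Deviations of same-numbered replicates correlated at -0.112 to 0.132 over the 6 pairs of groups, below 0.1 in some, and the fit without a block was kept. With the replicate block, 4, 7, 3, 5, 3 and 6 members passed for carnitine, peroxide, peroxide in carnitine-fed cells, carnitine under peroxide, the difference and both treatments, and PHM8 gained calls for carnitine (-0.64, adjusted p = 0.0243) and for the difference (-0.52, adjusted p = 0.0421). Over all genes, 80 passed for carnitine, against 17 to 54 with 1 array left out, 683 for the difference, against 17 to 969, and 1892 for carnitine under peroxide, against 786 to 1763.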
